A study of Mus musculus with 12 samples.

Results

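Chromatin accessibility was examined at the loci of 8 regulators of fat cell formation, Pparg, Cebpb, Cebpd, Ebf1, Ebf2, Zfp423, Prdm16 and Klf5, in mouse embryonic fibroblasts at day 2 of reprogramming towards hepatocytes. Members were all peaks of the deposited ATAC-seq table that overlap the body of 1 of the 8 genes (GENCODE M21) or the 25 kb on either side of it, a rule that uses position alone. This gave 242 of 176680 peaks. Ebf1 held 61 of them, Zfp423 62, Prdm16 52, Ebf2 25, Pparg 19, Cebpb 11, Klf5 7 and Cebpd 5. ATAC-seq uses the transposase Tn5 to place sequencing adapters in open DNA, so that the reads in a peak measure how accessible it is.

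The series holds 12 libraries in 4 groups of 3 replicates, of which the table concerns the 4in1_GFP_OE and 4in1_Prox1_OE groups (6 libraries). All were primary fibroblasts of wild-type C57BL/6N embryos, seeded on collagen, given lentivirus for the transactivator rtTA and kept in doxycycline, which switches on the transgenes. Cells of the 4in1_GFP_OE group carried the reprogramming cassette 4in1 and GFP, and cells of the 4in1_Prox1_OE group the same cassette and FLAG-tagged mouse Prox1, a homeodomain transcription factor. Both groups thus share rtTA, doxycycline and 4in1, and the comparison asks what added Prox1 does to chromatin during reprogramming. Transduced cells were a bulk population, in which fewer cells with an open site and a site less open in each cell cannot be told apart. The study's reporting summary describes its experiments as done in independent biological replicates, and the labels do not say for these libraries whether replicates were separate cultures. The MEF and Prox1_OE groups were not analysed here.

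Fat cells arise from mesenchymal precursors through a relay of transcription factors. C/EBPβ and C/EBPδ act early, EBF proteins and KLF5 act with them, and all of these help to switch on PPARγ, the nuclear receptor that commits a cell to the adipocyte fate and keeps it there. ZFP423 marks and primes white preadipocytes, while PRDM16 and EBF2 are known for the brown and beige programs. Embryonic fibroblasts can be turned into adipocytes in culture, and several of these genes are active in them before any fat is made.

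The sequences of 6 peaks at these loci are shown because each is the largest fall, or at Zfp423 and Prdm16 the largest rise, among the stronger peaks of its gene, those above the median level of the table. They are the plus strand of GRCm38.p6 (the mm10 build), 5′ to 3′, with capitals marking matches to the motifs searched on both strands. In the Pparg peak, chr6:115480289-115480489, the capitals mark a match to the PROX1 consensus that allows 1 mismatch, overlapped at its 3′ end by the reverse complement of the GATA motif AGATAA, and further on the reverse complement of the AP-1 motif TGACTCA. The capitals of the Ebf1 peak (chr11:44812446-44812646) mark an AP-1 motif, those of the Ebf2 peak (chr14:67260394-67260594) a reversed GATA motif, and those of the Zfp423 peak (chr8:87745227-87745427) a reversed TEAD motif, GGAATGT. The Prdm16 peak (chr4:154556456-154556656) and the Klf5 peak (chr14:99295782-99295982) held none of the letters searched. The letters come from the reference and say nothing of the cells' own alleles. In the labels, lost means lower with Prox1 and gained means higher with Prox1, and all 6 peaks had reads in both groups.
Pparg intron, lost: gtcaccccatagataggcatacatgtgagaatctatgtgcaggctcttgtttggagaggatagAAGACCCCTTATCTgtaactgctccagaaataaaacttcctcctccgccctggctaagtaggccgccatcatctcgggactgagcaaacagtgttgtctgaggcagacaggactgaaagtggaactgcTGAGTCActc
Ebf1 intron, lost: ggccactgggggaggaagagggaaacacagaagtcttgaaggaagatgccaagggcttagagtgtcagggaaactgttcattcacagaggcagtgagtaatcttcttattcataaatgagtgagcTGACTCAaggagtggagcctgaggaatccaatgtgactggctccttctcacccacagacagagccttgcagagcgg
Ebf2 intron, lost: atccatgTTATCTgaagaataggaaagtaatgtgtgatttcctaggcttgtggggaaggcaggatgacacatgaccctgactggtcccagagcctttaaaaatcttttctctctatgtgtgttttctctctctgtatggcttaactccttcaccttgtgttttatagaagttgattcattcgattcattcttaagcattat
Zfp423 intron, gained: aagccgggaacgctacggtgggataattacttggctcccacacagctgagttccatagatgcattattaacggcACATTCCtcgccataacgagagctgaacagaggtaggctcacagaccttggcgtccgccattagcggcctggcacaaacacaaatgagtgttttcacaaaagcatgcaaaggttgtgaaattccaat
Prdm16 intron, gained: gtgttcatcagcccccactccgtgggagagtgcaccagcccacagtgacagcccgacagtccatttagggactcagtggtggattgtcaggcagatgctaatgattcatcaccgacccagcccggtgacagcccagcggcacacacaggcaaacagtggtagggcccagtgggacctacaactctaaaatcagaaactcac
Klf5 upstream, lost: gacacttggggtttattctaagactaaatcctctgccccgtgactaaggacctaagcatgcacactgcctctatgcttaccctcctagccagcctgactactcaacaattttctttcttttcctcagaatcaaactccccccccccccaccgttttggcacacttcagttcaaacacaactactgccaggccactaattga

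Accessibility is given as the authors' mean of normalized reads in each group, and differences as the log2 of the 4in1_Prox1_OE mean minus that of the 4in1_GFP_OE mean. Means of 3 libraries carry no spread here. The only measure of replicate error used is therefore membership of the authors' lists of peaks enriched in 1 group. For these the study's methods name an adjusted P of 0.05. A peak of the list enriched with GFP is said to have fallen, and 1 of the list enriched with Prox1 to have risen. The lists and the means come from the same libraries and are not independent of each other. The depth of the single libraries is unknown.

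Of the 242 peaks at the 8 loci, 100 fell, 53 rose and 89 were in neither list. The share that fell, 41.3%, lay below the 48.2% of all peaks that did, and the share that rose, 21.9%, lay above the 14.9% of all peaks. These pooled shares do not hold for each locus. At Zfp423 and Prdm16, with 62 and 52 of the peaks, 24.2% and 28.8% fell and 33.9% and 28.8% rose. The share that fell was 68.4% at Pparg, 60% at Ebf2, 57.1% at Klf5 and 54.1% at Ebf1, each above that of all peaks. It was 36.4% at Cebpb and 20% at Cebpd. At a change of 2-fold or more in the group means, 44 peaks were lower against 24.4% of all peaks, and 23 were higher against 8.33% of all peaks. The median difference of the 242 peaks was -0.29, with quartiles of -0.79 and 0.40. The lists parted near small changes. The smallest fall listed was -0.37 and the smallest rise 0.41, while unlisted peaks ran from -0.64 to 0.54.

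The median difference over all 176680 peaks was -0.42, and 72.3% of them lay below 0. Relative to that median the 8 loci together turned from -0.29 to 0.13, the loci of Cebpb, Cebpd and Prdm16 turned to above 0, those of Pparg, Ebf1, Ebf2 and Klf5 remained below it, and Zfp423 was above 0 on both scales. Of the 100 peaks that fell, 97 lay below the median of all peaks and 3 above it. Of the 89 unlisted peaks, 10 lay below it. The loci also differed in base composition, with a median GC content from 45.8% at Pparg to 57.2% at Cebpb against 48.8% over all peaks. A median relative to peaks of the same level and GC content is therefore given beside most loci.

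**Figure D1:**
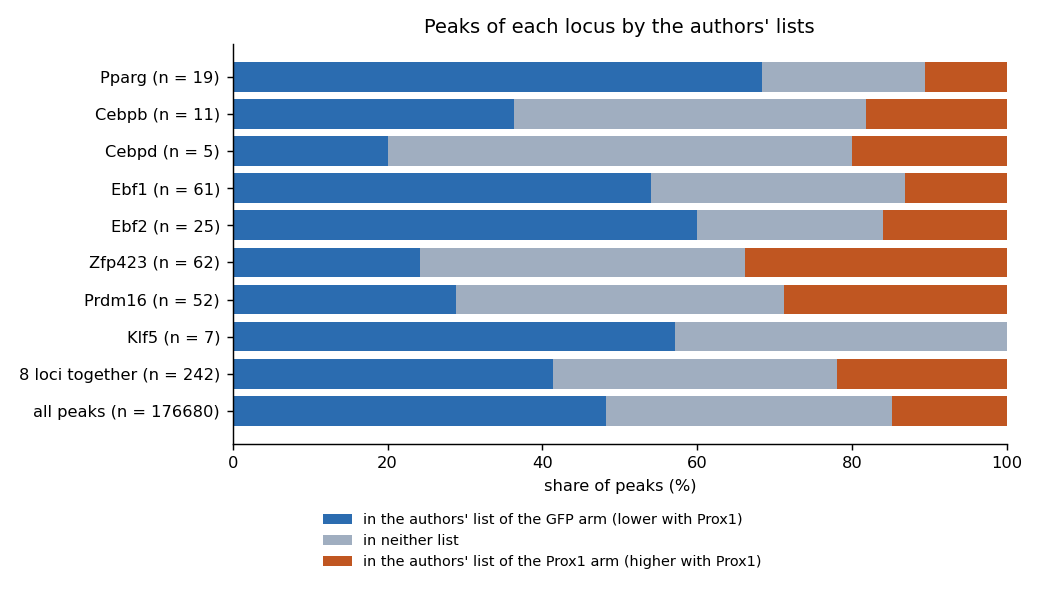
Share of peaks (%, horizontal axis) at each locus, at the 8 loci together and over all peaks that were in the authors' list enriched with GFP (blue, lower with Prox1), in the list enriched with Prox1 (orange) or in neither (gray). Pparg has the longest blue bar, at 68.4%, Zfp423 the longest orange bar, at 33.9%, and Klf5 has no orange bar.

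Pparg lost accessibility along most of its length. Of its 19 peaks, 13 fell, 2 rose and 4 were unlisted, and 7 were lower by 2-fold or more while 0 were higher by that much. These counts depend on where 0 lies, and were 1 and 2 when centred on the median of all peaks. The median difference was -0.82, or -0.40 relative to all peaks and -0.51 relative to peaks of the same level and GC content, the lowest of the 8 loci on each of these scales. Summed over its peaks, the locus held 0.609 times as many normalized reads with Prox1 as with GFP, against 0.751 for all peaks.

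The losses at Pparg were intronic and flanking. Within introns, 9 of 11 peaks fell. A run of 5 neighboring peaks, all of which fell, covered 82.1 kb of the gene from 21.9 to 104 kb past its 5′ end, and together their normalized reads went from 634 to 259. A second run of 3 peaks spanned 23.7 kb at the 3′ end. It includes the peak whose sequence is shown above, 119 kb into the gene, which fell from 278 to 106 normalized reads (-1.40, or 2.63-fold). It also includes the strongest distal peak of the locus, 133 kb past the 5′ end and just downstream of the gene, which fell from 449 to 225.

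The deepest fall, chosen after its values were seen, was in an intron 79.4 kb past the 5′ end, where the mean went from 131 to 43.2 (-1.60). A peak 11.1 kb upstream fell from 148 to 55.4 (-1.41). The peaks that rose lay 16.4 kb upstream of the start site, from 38.2 to 76.2 (1.00), and 106 kb into the gene, from 36.1 to 66.5 (0.88). These were the 2 faintest peaks of the locus with GFP, and the second stood between peaks that fell.

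Pparg has several annotated starts. The promoter peak at the first of them, over the untranslated region at chr6:115360930-115361130, had 495 normalized reads with GFP and 427 with Prox1 (-0.22) and was unlisted. No peak lay within 1 kb of the start 61.1 kb downstream. The loss of accessibility at Pparg was therefore measured at sites other than its promoter peak, whose difference was 0.20 above the median of all peaks.

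**Figure D2:**
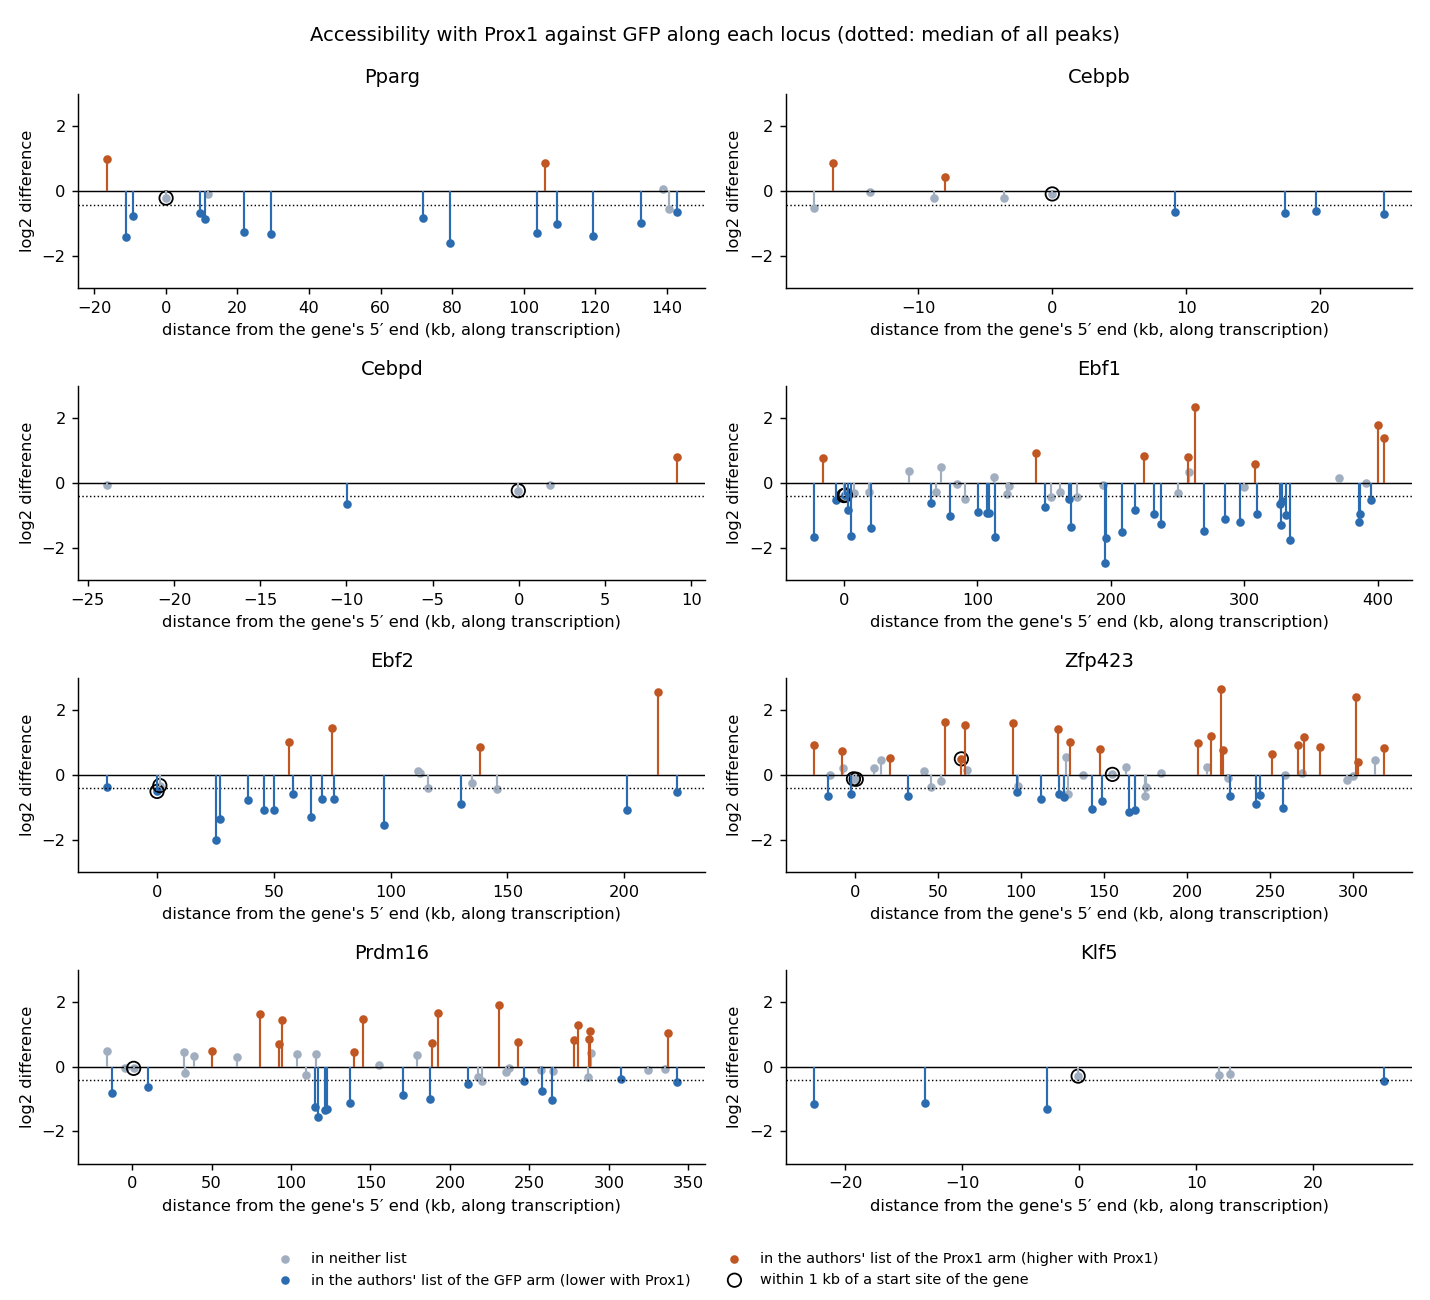
Log2 difference between the group means of 4in1_Prox1_OE and 4in1_GFP_OE (vertical axis) of each peak against the distance of its center from the gene's 5′ end in kb along transcription (horizontal axis), 1 panel per gene. Blue peaks were in the list enriched with GFP, orange ones in the list enriched with Prox1 and gray ones in neither, circles mark peaks within 1 kb of an annotated start of the gene, and the dotted line is the median of all peaks at -0.42. At Pparg the peaks below 0 run through the gene, while Zfp423 and Prdm16 have stretches of peaks above and below 0.

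The loci of the early C/EBP factors were short and held no change of 2-fold or more as deposited, although 1 peak at each was higher by that much when centred on the median of all peaks. Cebpb, which is induced at the start of adipogenesis, had 11 peaks, of which 4 fell and 2 rose. All 4 that fell were the 4 peaks downstream of the gene, over 15.8 kb, with differences between -0.60 and -0.71, and their summed means went from 944 to 601. The farthest of them, 24.7 kb from the start site, went from 241 to 148 (-0.71). It held matches to the direct repeat AGGNCAAAG of PPAR and HNF4 type receptors and to the KLF motif GGGTGTGG, besides RUNX letters.

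Upstream of Cebpb no peak fell. The rises there were from 131 to 177 at 7.91 kb from the start site (0.44) and from 51.9 to 94.7 at 16.2 kb (0.87). The promoter peak, with 734 and 691 normalized reads (-0.09), was the strongest peak of the locus. The median difference of the locus was -0.21, which became 0.20 relative to all peaks and -0.09 relative to peaks of the same level and GC content, so its sign depended on the reference.

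Cebpd, the partner that is induced with Cebpb, had 5 peaks. A peak 9.86 kb upstream fell from 189 to 120 (-0.65) and a faint peak 9.14 kb past the 5′ end rose from 27.5 to 47.8 (0.80). The promoter peak had 728 and 617 normalized reads (-0.24) and was unlisted. A peak over the untranslated region had 191 and 184 (-0.06), and a peak at the start of the neighboring gene Mzt2 had 546 and 521 (-0.07). The median of the locus, -0.07, turned to 0.35 relative to all peaks.

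At the EBF genes more than 50% of the peaks fell, as did 51.1% of all peaks further than 1 kb from a start site. These loci also held some of the largest gains. EBF1 and EBF2 are sister factors that open chromatin at fat cell enhancers, and EBF1 is also a regulator of B cells. At Ebf1 33 of 61 peaks fell and 8 rose, and at Ebf2 15 of 25 fell and 4 rose. The shares that fell, 54.1% and 60%, compare with 48.2% of all peaks. Outside their own promoters the shares were 54.2% and 60.9%, to be read against the 51.1%. By 2-fold or more, Ebf1 had 16 peaks lower and 3 higher as deposited and 8 and 7 when centred on the median of all peaks, and Ebf2 had 7 and 3, then 2 and 4. The median differences were close, at -0.51 and -0.52, which is -0.09 and -0.10 relative to all peaks and -0.08 and -0.07 relative to peaks of the same level and GC content. Both loci thus stood near the rest of the table by their medians. Their sums of reads were 0.671 and 0.674 of those with GFP, below the 0.751 of all peaks.

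The largest fall among all 242 peaks was in an Ebf1 intron, 195 kb past the 5′ end. Its mean went from 434 to 78.9 normalized reads (-2.46, or 5.50-fold), and relative to peaks of the same level and GC content it was still -1.86. Only 3 peaks of the locus had more reads with GFP, and this one held an AP-1 motif, as the sequence above shows. The next peak downstream fell from 143 to 44.2 (-1.69), and the one after it from 167 to 58.4 (-1.52).

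The longest run of falls at the 8 loci by number of peaks was at Ebf1, with 6 neighbors over 25.6 kb, from 309 to 334 kb past the 5′ end, whose summed means went from 1188 to 581. A run of 4 over 23.0 kb held the deepest fall, and a run of 3 that starts at the weaker promoter peak went from 797 to 507. Rises were scattered between them. The largest, 263 kb into the gene, went from 14.5 to 74.4 (2.36) and was chosen after its values were seen, and a pair of rises downstream of the gene went from 31.9 to 110 (1.79) and from 29.1 to 76.3 (1.39). Among stronger peaks the largest rise was from 110 to 164 (0.58).

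At Ebf2 a run of 5 neighboring peaks from 25.2 to 50.0 kb past the 5′ end fell, from 1056 to 482 in sum. This run held the peak shown above, which went from 254 to 98.5 (-1.37), and beside it the deepest fall of the locus, from 134 to 33.4 (-2.01). A peak of 380 normalized reads 65.9 kb past the 5′ end fell to 155 (-1.30). The highest gain lay downstream of the gene, 215 kb past the 5′ end, from 15.8 to 92.2 (2.55). Rises at Ebf2 were seen only at peaks of 41.8 normalized reads or fewer with GFP. Among its stronger peaks the largest difference above 0 was 105 against 114 (0.11), which was unlisted.

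The promoters of both EBF genes had 2 peaks each. At Ebf1 the stronger, over the untranslated region, had 580 and 443 normalized reads (-0.39) and was unlisted, while the second, over coding sequence, fell from 452 to 350 (-0.37). At Ebf2 the stronger had 677 and 539 (-0.33) and was unlisted, while the peak at the first start fell from 248 to 174 (-0.51). Relative to the median of all peaks, only the weaker Ebf2 promoter peak of these 4 stayed below 0, while relative to peaks of the same level and GC content all 4 were below 0, from -0.17 to -0.067.

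**Figure D3:**
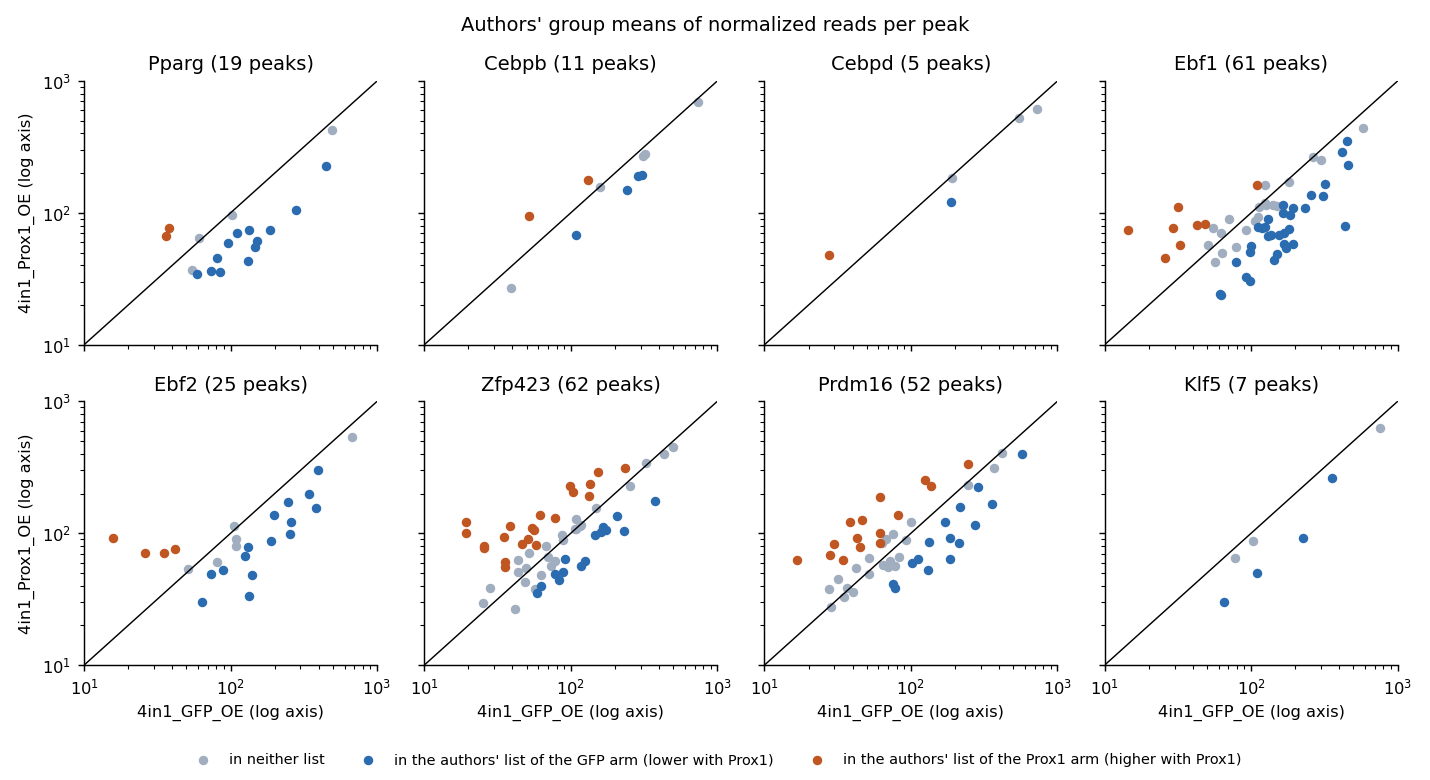
Authors' group means of normalized reads per peak in 4in1_GFP_OE (horizontal, log axis) and 4in1_Prox1_OE (vertical, log axis), 1 panel per gene and 1 point per peak, with the line of equal means and the colors of the authors' lists. Rises at Ebf2 start at 41.8 normalized reads or fewer, while those at Zfp423 reach up to 236 and those at Prdm16 up to 245.

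Zfp423 went the other way. ZFP423 is a zinc finger protein that partners with EBF proteins and primes preadipocytes. Of its 62 peaks, 21 rose, 15 fell and 26 were unlisted, the only locus of the 8 with more rises than falls. The median difference was 0.06, above 0 before centring, and became 0.47 relative to all peaks and 0.16 relative to peaks of the same level and GC content. The sum of reads was 1.06 times that with GFP.

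Gains at Zfp423 reached peaks that were already open. The peak shown above, in an intron 59.0 kb from the nearest start, rose from 99.2 to 229 (1.21, or 2.31-fold). Others rose from 154 to 293 (0.92), from 104 to 207 (0.98) and from 135 to 237 (0.81). The largest rise among all 242 peaks was in the same run of 3 neighbors as the peak shown, from 19.2 to 122 (2.67), and was chosen after its values were seen. That run covered 7.37 kb, and its summed means went from 154 to 412. Another run of 3 rises over 12.3 kb included an internal start of the gene 63.9 kb past the first, and the peak at that start rose from 57.8 to 81.4 (0.49).

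Falls and rises were both found along the length of Zfp423. The largest fall was from 230 to 105 (-1.14) in an intron 9.63 kb from a start, and its neighbor, the strongest outside the promoters with GFP, fell from 375 to 176 (-1.09). A run of 3 falls over 17.9 kb lay near the run that held the largest rise. The promoter peaks at the first start had 497 and 452 normalized reads (-0.14) and 436 and 399 (-0.12). The last start, 155 kb past the first, had a peak of 88.1 and 89.0 (0.01), and all 3 of these were unlisted.

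Prdm16 was in both lists equally often. PRDM16 is a zinc finger coregulator that directs precursors to the brown fat fate. Of 52 peaks, 15 fell, 15 rose and 22 were unlisted. By 2-fold or more, 7 were lower and 8 higher as deposited, and 1 lower and 13 higher when centred on the median of all peaks. The median difference was -0.05, turned to 0.37 relative to all peaks and was 0.13 relative to peaks of the same level and GC content.

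Neighboring runs of falls and rises lay within Prdm16. From 117 to 137 kb past the 5′ end, 4 neighboring peaks fell, from 888 to 368 in sum over 20.2 kb, and the deepest of them went from 185 to 63.4 (-1.55). From 80.3 to 94.2 kb, 3 neighbors rose, from 169 to 415 in sum over 14.1 kb. The strongest of these with Prox1, shown above, rose from 61.1 to 189 (1.62, or 3.08-fold). The largest rise in log2 terms was elsewhere, from 16.7 to 62.7 (1.91), in a peak that held the C/EBP-ATF motif TTGCATCA.

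The 6 strongest Prdm16 peaks with GFP fell or were unlisted. The highest with GFP, an intronic peak 211 kb past the 5′ end that held an AP-1 motif, fell from 572 to 398 (-0.52), and the next of the falls went from 360 to 167 (-1.11). The promoter peak had 418 and 403 normalized reads (-0.05), the difference nearest to 0 of the 8 promoters as deposited and the highest relative to the median of all peaks (0.37). A peak of 245 normalized reads with GFP that rose to 336 (0.45) was the strongest rise at the locus.

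Klf5, a Krüppel-like factor that acts downstream of the C/EBPs on the Pparg promoter, had 7 peaks. Of the 7, 4 fell (57.1%, against 48.2% of all peaks) and 0 rose (against 14.9% of all peaks). The 3 peaks upstream of the promoter all fell, by more than 2-fold as deposited, while 0 were lower by 2-fold when centred on the median of all peaks. The nearest of them, 2.71 kb from the start site and shown above, went from 226 to 92.0 (-1.29), the next from 65.1 to 30.0 (-1.12) and the farthest from 111 to 50.0 (-1.15). The farthest lay 22.7 kb upstream of the 5′ end. The promoter peak beside them had 764 and 624 normalized reads (-0.29), the highest level with GFP among the 242 peaks, and was unlisted. The fourth fall, outside the gene body, went from 357 to 261 (-0.45) and is the middle value of the locus. With 2 unlisted intronic peaks (-0.25 and -0.24), the median of the locus thus came to -0.45, or -0.03 relative to all peaks.

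The promoter peak with the highest mean was unlisted at each of the 8 genes. Differences ran from -0.39 at Ebf1 to -0.05 at Prdm16, all below 0 as deposited and all above 0 relative to the median of all peaks. Relative to peaks of the same level and GC content they ran from -0.14 at Ebf2 to 0.14 at Prdm16, and 5 of 8 were below it. Over all peaks within 1 kb of a start site, 28.2% fell and 8.34% rose, so unlisted promoters were common in the table (63.5%). With the further promoter peaks of Ebf1, Ebf2 and Zfp423 there were 13, of which 2 fell and 1 rose, with a median of -0.22 against -0.21 for all such peaks. The other 229 peaks had a median of -0.32. Of these, 98 fell (42.8%) and 52 rose (22.7%), while of all peaks further than 1 kb from any start site 51.1% fell and 15.8% rose, with a median of -0.49. All 44 peaks lower by 2-fold or more and all 23 higher by that much were among the 229.

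**Figure D4:**
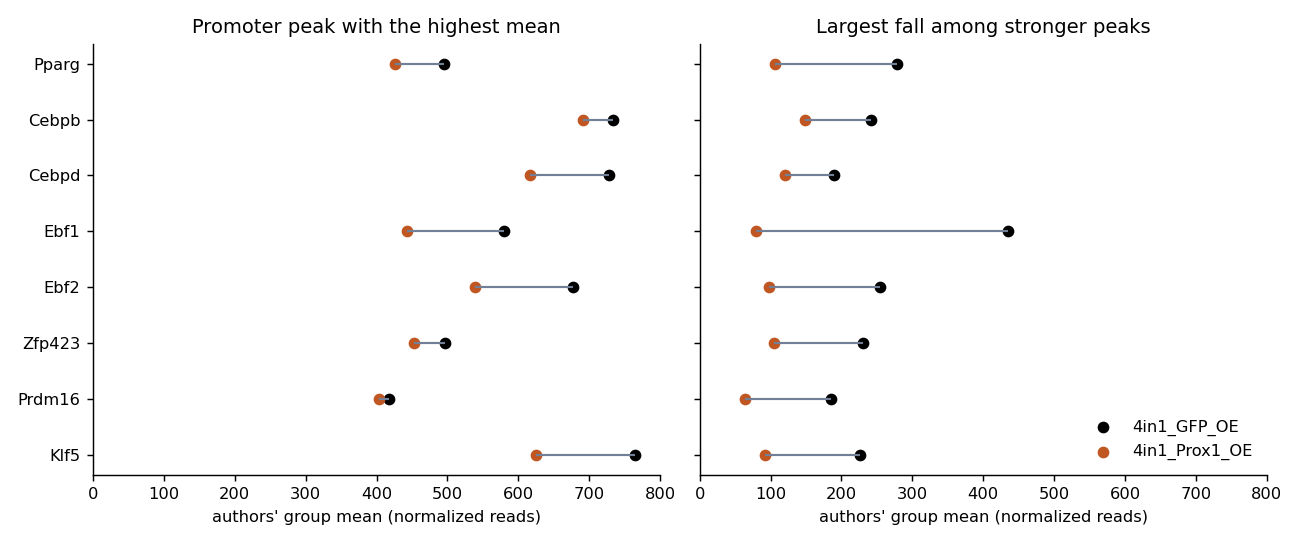
Authors' group means (normalized reads, horizontal axis) in 4in1_GFP_OE (black) and 4in1_Prox1_OE (orange) for the strongest promoter peak of each gene (left) and for its largest fall among peaks above the median level of the table (right). Promoter means lie between 403 and 764 with short lines, while at Ebf1 the distal peak goes from 434 to 78.9.

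Falls and rises at these loci began from different levels. Peaks that fell had a median of 154 normalized reads with GFP and 74.5 with Prox1, and those that rose went from 43.0 to 92.2. Unlisted peaks had medians of 87.1 and 87.5. Over all peaks the same medians were 160 and 75.8 for falls and 40.7 and 94.0 for rises. The difference contains the GFP mean, so its relation to that mean is a description only.

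Motif letters were counted in the 242 peaks, each of 201 bases. The AP-1 motif was in 50 peaks (20.7%, against 23.0% of all peaks). AP-1 is the FOS and JUN dimer that is active in growing fibroblasts. Of the 50, 33 fell and 6 rose, with a median of -0.66 against -0.15 for the peaks without it. Over all peaks the medians were -0.84 and -0.31, and 68.4% of all AP-1 peaks fell and 10.0% rose, near the 66.0% and 12.0% at these loci. By locus, the AP-1 peaks of Ebf2 had a median of -1.09 against -0.40 without, those of Zfp423 -0.66 against 0.21, those of Prdm16 -0.63 against 0.29 and the 2 of Klf5 -0.78 against -0.29. Cebpd had 0 such peaks. The order was the other way at Ebf1, with 18 such peaks (-0.41 against -0.55), and at Cebpb, with 2 (0.11 against -0.21). At Pparg, with 3, the medians were -0.85 and -0.80.

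The motifs of the adipogenic factors themselves were found in few of the peaks. The EBF motif CCCNNGGGA was in 8 peaks (3.31%, against 4.11% of all peaks), 5 of them at Zfp423, 2 at Prdm16 and 1 at Ebf2, and of the 8 peaks 2 fell and 3 rose. Of all peaks with it, 40.8% fell and 19.4% rose. The C/EBP palindrome TTGCGCAA was in 0 peaks and in 0.0747% of all peaks. The PPAR and HNF4 type direct repeat was in 7 peaks (2.89%, against 1.39%), of which 2 fell and 0 rose, and none was at Pparg. Of all peaks with it, 47.9% fell and 14.6% rose. The PROX1 consensus was in 1 peak, the Pparg intron shown above, and in 0.305% of all peaks.

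Of the other motifs, most were near their share of all peaks, with GATA letters more frequent and forkhead letters less. TEAD letters were in 18 peaks (7.44%, against 7.69%), RUNX letters TGTGGT in 44 (18.2%, against 18.5%), KLF letters in 6 (2.48%, against 2.28%) and GATA letters in 22 (9.09%, against 6.72%). The forkhead motif TGTTTAC was in 2 peaks (0.826%, against 2.65%) and the C/EBP-ATF motif in 2 (0.826%, against 0.859%). A match is a run of letters and not a bound site.

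The wider adipogenic program was read out with 4 lists of genes by the same rule, none of which shares a peak with the 8 loci. For 12 other promoters of adipogenesis, such as Cebpa and Rxra, 66 of 152 peaks fell and 20 rose, with a median of -0.30. For 10 genes taken here as restrainers, such as Gata2, Dlk1 and Wnt10b, 86 of 176 fell and 25 rose, with a median of -0.41. The share of falls was 43.4% in the first list, below the 48.2% of all peaks as was the 41.3% at the 8 loci. It was 48.9% in the second, near that of all peaks. Of 133 peaks at 14 genes for adipocyte products, 41 fell (30.8%) and 25 rose (18.8%), with a median of -0.22. Falls were thus fewer and rises more frequent than the 48.2% and 14.9% of all peaks. These peaks also had a higher median GC content, 53.7% against 48.8% over all peaks. Of 56 peaks at 6 brown and beige fat genes, 24 fell (42.9%) and 8 rose (14.3%), with a median of -0.30. Relative to peaks of the same level and GC content the medians of the 4 lists, in the order given, were 0.019, -0.030, 0.061 and 0.069.

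At some genes of these lists the median as deposited was near that of Pparg. At Fabp4, the fatty acid binding protein of adipocytes and a PPARγ target, 5 of 8 peaks fell and 0 rose (median -0.81), and at Adipoq, which encodes adiponectin, 5 of 8 fell and 1 rose (-0.85). At Ppargc1a, a coactivator of PPARγ, 12 of 16 fell and 2 rose (-0.72). At Zfp521, an antagonist of ZFP423 and EBF proteins, 26 of 44 fell and 4 rose (-0.76). Other genes of these lists had more rises than falls. At Cfd 1 of 11 peaks fell and 3 rose (-0.07), at Ppara 0 of 10 fell and 3 rose (0.08) and at Gata2 3 of 12 fell and 6 rose (0.31). Relative to peaks of the same level and GC content the medians were -0.33 at Fabp4, -0.14 at Adipoq, 0.014 at Ppargc1a and -0.27 at Zfp521, against -0.51 at Pparg. These 7 genes were chosen after their values were seen.

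The labelled cell type was checked against promoters of marker genes. All 10 fibroblast markers had a promoter peak, with means from 156 to 784 normalized reads with GFP and from 128 to 615 with Prox1, and 5 of them fell and 0 rose, against 28.2% and 8.34% of all promoter peaks. Of 6 adipocyte markers, Fabp4 and Cidec had a promoter peak, and Adipoq, Plin1, Cfd and Lep had none. Of 6 hepatocyte markers only Apob had one, and 0 of 5 blood markers did. Promoter peaks were present for 4 of 5 endothelial, 5 of 5 epithelial and 5 of 5 neuronal markers. Of these, 2 endothelial promoters fell, 2 epithelial ones fell and 2 rose, and 1 neuronal one rose, while of the adipocyte promoters that of Fabp4 fell. The part of these markers in the results at the 8 loci was not tested.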

How the data were processed

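ATAC-seq libraries of mouse embryonic fibroblasts at day 2 were made for 4 groups of 3 replicates. The authors' methods state that reads were trimmed (Trimmomatic 0.38), aligned to mm10 (Bowtie2 2.3.4.3), recalibrated for Tn5 insertion bias and filtered (SAMtools 1.10, Picard 2.18.16, bedtools 2.27.1), and that groups were compared with DiffBind 3.4.11. The methods name MACS2 2.1.2 as peak caller and the reporting summary another caller, so the caller is uncertain. The authors deposited, for each peak, log2 mean normalized reads over both groups and in each group. For that step the methods point to the vignette of the same DiffBind release and spell out no normalization. Their fold change, p-value and FDR columns hold the authors' own comparison and were not used. The 2 peak lists, deposited as intervals of another kind with no score or value, were matched to peaks by exact coordinates.

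Group means were taken back to the linear scale and their log2 difference computed with Python 3.11.15, numpy 2.4.6 and pandas 2.3.3. No values per library were used, so no test over samples, replicate check or depth per library could be had. Peaks were annotated with GENCODE M21, promoter peaks lying within 1 kb of a start of the basic set, and sequence came from GRCm38.p6. For each gene the promoter peak of highest mean and the largest fall and rise among peaks above the median level of the table were named. Other peaks named were chosen after their values were seen. Level and GC references are medians of all peaks in the same decile of both. The logic of the window, median, centring and AP-1 motif steps was checked on simulated data, in code written apart. The matching of lists, the promoter annotation and the level and GC references were not checked in that way. The members, lists and motifs were chosen with earlier results of these data known.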

Additional observations from a re-analysis of the deposited data

How the results depend on the processing

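No paired analysis was possible because only group means were used, with no value per library, and the planned fits without each replicate and with a replicate block were not run for the same reason. The median difference of the 242 peaks, -0.29, was -0.42 without the 25% of peaks with the lowest level and -0.028 when centred on the 10% with the highest. It turned to 0.13 when centred on all peaks, to 0.12 with both groups scaled to equal totals and to 0.058 relative to peaks of the same level and GC content, a setting chosen after seeing the data. The count of rises went from 53 to 28 without the lowest 25%. Peaks lower by 2-fold or more went from 44 to 12 (centred on all peaks), 24 (centred on the highest 10%), 13 (equal totals) and 87 (at 1.5-fold), and those higher by 2-fold or more from 23 to 46, 43, 46 and 46 in the same order, and to 11 without the lowest 25%. The gene body alone, windows of 10 and 50 kb, and leaving out promoters of other genes kept each count within 1.5 times its value. Of the 12 listed peaks named by rule, 8 fell and 4 rose, and 0 changed sign when centred on all peaks. That outcome was fixed by the choice of peaks. Centring subtracts -0.42 from every value, and the named falls, chosen as the largest, were all -0.65 or deeper. The 8 unlisted promoter peaks named all turned from below to above 0. Relative to peaks of the same level and GC content, the named fall at Cebpd turned from -0.65 to 0.15. Where 0 lies was set by the authors' normalization, and no value here places it independently.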

Other observations

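Within the windows 4 peaks lay within 1 kb of the start of another gene. At Prdm16 the start of Arhgef16 had a peak that rose from 124 to 253 normalized reads (1.03) and one that had 245 and 233 (-0.07). In Pparg the start of Gm44079 coincided with an intronic peak that fell from 151 to 61.6 (-1.30). The peak at the start of Mzt2 upstream of Cebpd is given above.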
